A study of Mus musculus with 3 samples.

Results

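Primitive endoderm is the extraembryonic layer that separates from the epiblast in the mouse blastocyst and gives rise to visceral and parietal endoderm. A set of 10 of its marker genes was followed in mouse embryonic stem cells, out of 20284 genes that the array names. The genes were taken by name, with earlier results of these data known. Every probe that carries a RefSeq accession of one of these genes was read, which gave 13 probes. The set comprises the transcription factor genes Gata4, Gata6, Sox17, Sox7 and Foxa2, the receptor gene Pdgfra, and the effector genes Dab2, Amn, Cubn and Afp. RNA was measured on 3 arrays in all, 1 per group, each from male embryonic stem cells kept with leukemia inhibitory factor and serum on mitomycin-treated feeder fibroblasts. The groups were Pcgf6KO+ Pcgf6_flag, in which cells had received Flag-tagged Pcgf6 by lentivirus, Pcgf6KO, made with Cas9, and wildtype. Whether the edited cells are 1 clone is not stated in the labels, whose source field adds the word muscle to embryonic stem cell. Pcgf6 encodes a RING finger protein that defines the Polycomb repressive complex PRC1.6.

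In the blastocyst, FGF signalling keeps Gata6 on in the cells that become primitive endoderm, and Gata4, Sox17 and Sox7 follow as these cells mature. Pdgfra marks the lineage from early on. Visceral endoderm then feeds the embryo: it takes up nutrients through cubilin and amnionless, a receptor pair that binds megalin and the endocytic adaptor Dab2, and it secretes serum proteins such as alpha-fetoprotein. Embryonic stem cells correspond to the epiblast side of this choice, and a minority of cells in serum culture can carry endoderm markers. Several of the genes, Pdgfra, Gata4, Gata6, Sox7 and Dab2 among them, are also known from mesenchymal cells, and Sox7 and Sox17 from blood vessel endothelium.

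A level below is log2 of the processed signal minus the 75th percentile of its array, and a difference is a difference of such levels. The error after ± is the signal error of the scanner software for a probe with 1 spot, or the SD over spots for the Afp and Pdgfra probes, which have 10 spots each. It covers the reading of 1 array and no variation between cultures. Since every group is a single array, replication and tests were not possible, and a fixed rule of 2-fold, or 1 log2 unit, was used. The Pcgf6KO and wildtype arrays lay on 1 slide and the third array alone on another, so slide and group cannot be told apart in comparisons with it. The Pcgf6 probe, which has 1 spot, read 0.42 on the array labelled Pcgf6KO+ Pcgf6_flag, 0.84 in Pcgf6KO and 1.87 in wildtype. Its reading was thus not raised on the array labelled as carrying the added gene. Where the probe lies relative to the edit and the introduced sequence is not known, so this reading does not tell whether the added gene was expressed. That array had the highest 75th percentile of signal, 4619 units, against 4292 in Pcgf6KO and 3917 in wildtype. Its lowest signal well above background was also the highest, 103.1 units, against 53.4 in Pcgf6KO and 52.7 in wildtype. All 10 stem cell markers were well above background on every array, with differences between Pcgf6KO and wildtype from -0.36 to 0.29. Of 18 fibroblast markers 12 were well above background on the array labelled Pcgf6KO+ Pcgf6_flag, 14 in Pcgf6KO and 17 in wildtype. Their summed signal, relative to the 75th percentile, was 12.97, 27.4 and 66.1 in that order.

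In Pcgf6KO, 3 of the 4 effector genes were at least 2-fold higher than in wildtype, against 5.80% of all genes measured on both arrays. The fourth was at least 2-fold lower, against 2.81% of all genes, and none of the 5 transcription factor genes reached 2-fold. Afp was 6.48-fold higher, Dab2 2.40-fold and Amn 2.19-fold, and Cubn was 3.67-fold lower. All 5 transcription factor genes and Pdgfra lay below wildtype by less than 2-fold. All 10 genes were well above background on both arrays. In such mixed RNA, fewer cells of a type and less RNA per cell cannot be told apart.

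Afp encodes alpha-fetoprotein, the main serum protein of visceral endoderm and fetal liver. Its level was -5.68 ± 0.40 on the array labelled Pcgf6KO+ Pcgf6_flag, -3.00 ± 0.08 in Pcgf6KO and -5.70 ± 0.31 in wildtype. The 10 spots of its probe ranged from 54.5 to 139.4 signal units on the array labelled Pcgf6KO+ Pcgf6_flag, from 493.9 to 574.5 in Pcgf6KO and from 54.9 to 98.04 in wildtype. The Pcgf6KO spots thus lay above all spots of both other arrays, which overlapped each other. The difference between Pcgf6KO and wildtype was 2.70 ± 0.32, at percentile 99.6 of the differences of all genes measured on both arrays. With normexp background correction it was 1.72. In wildtype only 8 of the 10 spots were well above background, so Afp was close to the lower limit there. On the array labelled Pcgf6KO+ Pcgf6_flag only 2 of the 10 were, so Afp did not count as measured on that array. Of 5 hepatocyte markers, Alb, Fgb and Serpina1a were not well above background on any array, and Ahsg, the fetuin gene, differed by 0.59. Tat, the tyrosine aminotransferase gene, was well above background in Pcgf6KO only, at least 2.31-fold higher there than in wildtype. The part of such cells in the Afp difference was not tested.

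**Figure D1:**
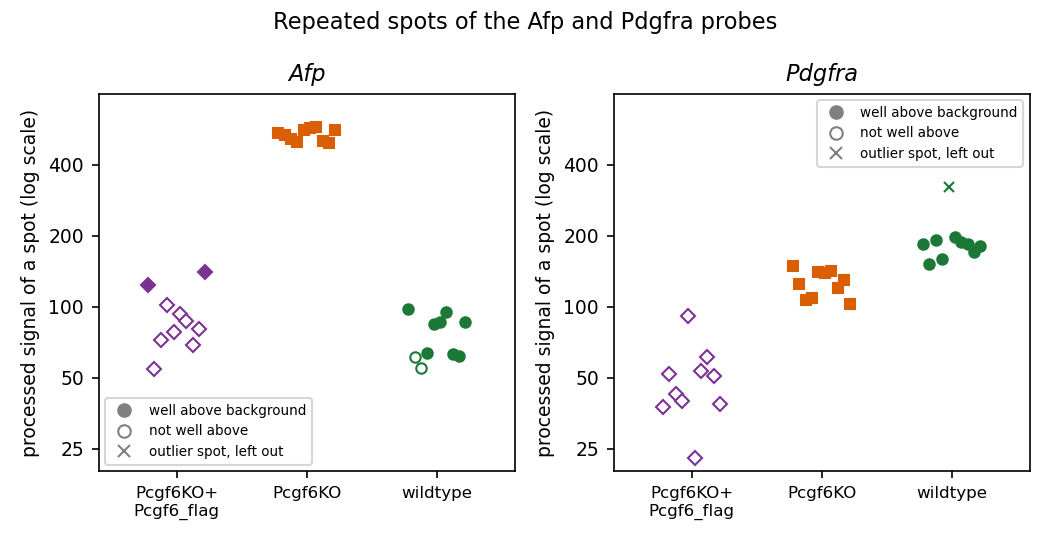
Processed signal of each of the 10 spots of the Afp and the Pdgfra probe (y axis, signal units, log scale) on the 3 arrays; filled points are well above background, open points are not, and a cross is a spot left out as an outlier. For Afp the Pcgf6KO spots lie between 493.9 and 574.5 and do not overlap the other arrays, and for Pdgfra the spots run highest in wildtype and lowest on the array labelled Pcgf6KO+ Pcgf6_flag.

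Dab2 encodes Disabled-2, a clathrin adaptor needed for uptake in visceral endoderm. Its level was -4.88 ± 0.24 on the array labelled Pcgf6KO+ Pcgf6_flag, -1.41 ± 0.14 in Pcgf6KO and -2.67 ± 0.15 in wildtype. It was highest in Pcgf6KO by 1.27 ± 0.21 over wildtype, at percentile 96.3. Amn encodes amnionless, the membrane anchor of cubilin. Its level was -3.23 ± 0.16 on the array labelled Pcgf6KO+ Pcgf6_flag, -0.95 ± 0.14 in Pcgf6KO and -2.08 ± 0.15 in wildtype, the same order of arrays as for Dab2. The difference of 1.13 ± 0.20 between Pcgf6KO and wildtype, at percentile 95.4, was close to the 2-fold limit. It was 0.98 with normexp background correction. Cubn encodes cubilin, the large binding subunit of that receptor, and ran the other way. Its brighter probe read -2.56 ± 0.15 on the array labelled Pcgf6KO+ Pcgf6_flag, -3.14 ± 0.15 in Pcgf6KO and -1.26 ± 0.14 in wildtype. It was highest in wildtype, and the difference of Pcgf6KO from wildtype was -1.88 ± 0.21, at percentile 0.67. The second Cubn probe was not well above background on any array. The partners Amn and Cubn therefore differed from wildtype in opposite directions in Pcgf6KO.

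The promoters of the effector genes are shown because these genes, and not the transcription factor genes, passed 2-fold in Pcgf6KO. The sequences are from RefSeq, build GRCm38.p6, and run 5′ to 3′ on the strand of the gene from 250 bases before to 50 bases after the start. A promoter was given for 6 of the 10 genes, with 9 starts in all, and none for Gata4, Sox17 and Sox7; that of Gata6 was not used here. The Afp promoter lies at chr5:90490464-90490763 on the plus strand, that of Amn at chr12:111270846-111271145 on the plus strand and that of Cubn at chr2:13491827-13492126 on the minus strand. Dab2 has an upstream start at chr15:6299539-6299838 and a downstream start at chr15:6386498-6386797, both on the plus strand. Capitals mark matches to any of 5 motifs, searched on both strands. TTCCCGC is bound by E2F6 and CACGTG by MGA with MAX, all of them PRC1.6 proteins. GATAA is bound by GATA factors, while ACAAT is bound by SOX factors and TGTTTNC by FOXA factors. No motif is contained in another.
Afp: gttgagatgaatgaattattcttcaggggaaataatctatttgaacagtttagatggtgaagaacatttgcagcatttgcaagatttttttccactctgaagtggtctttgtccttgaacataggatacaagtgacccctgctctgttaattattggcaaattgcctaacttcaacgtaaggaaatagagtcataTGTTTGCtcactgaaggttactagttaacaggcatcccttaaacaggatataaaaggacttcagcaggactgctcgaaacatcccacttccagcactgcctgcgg
Amn: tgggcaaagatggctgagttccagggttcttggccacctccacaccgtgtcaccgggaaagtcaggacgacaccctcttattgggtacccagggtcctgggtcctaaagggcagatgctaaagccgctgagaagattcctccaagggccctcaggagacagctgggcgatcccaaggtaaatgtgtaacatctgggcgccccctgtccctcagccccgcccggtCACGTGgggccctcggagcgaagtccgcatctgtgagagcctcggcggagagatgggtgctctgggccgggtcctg
Cubn: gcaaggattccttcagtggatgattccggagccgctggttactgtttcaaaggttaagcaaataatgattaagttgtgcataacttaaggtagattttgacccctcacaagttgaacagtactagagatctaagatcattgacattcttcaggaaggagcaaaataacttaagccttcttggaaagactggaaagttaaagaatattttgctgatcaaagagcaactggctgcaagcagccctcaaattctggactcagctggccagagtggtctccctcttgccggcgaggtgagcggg
Dab2 upstream start: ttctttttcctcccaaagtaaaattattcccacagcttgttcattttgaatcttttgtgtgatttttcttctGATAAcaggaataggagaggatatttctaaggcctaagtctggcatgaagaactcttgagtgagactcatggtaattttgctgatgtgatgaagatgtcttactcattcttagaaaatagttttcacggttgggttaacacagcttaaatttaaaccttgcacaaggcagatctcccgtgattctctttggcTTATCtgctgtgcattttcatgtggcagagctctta
Dab2 downstream start: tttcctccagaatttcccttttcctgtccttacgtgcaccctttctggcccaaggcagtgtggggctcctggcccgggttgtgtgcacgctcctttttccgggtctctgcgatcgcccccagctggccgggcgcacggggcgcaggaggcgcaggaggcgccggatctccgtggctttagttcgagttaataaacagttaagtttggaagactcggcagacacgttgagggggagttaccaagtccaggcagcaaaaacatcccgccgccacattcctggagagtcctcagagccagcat

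The Afp promoter held 1 TGTTTNC match, from base -55 to -49 with the start counted as base 0, a motif found in 20.5% of all 32851 promoters of this length. The Amn promoter held 1 CACGTG match from base -26 to -21, found in 7.15% of all promoters. The upstream Dab2 promoter held GATAA matches from base -178 to -174 and from base 14 to 18, found in 25.4% of all promoters. The Cubn promoter and the downstream Dab2 promoter held no match to any of the 5. TTCCCGC, found in 4.60% of all promoters, occurred among these genes only in 1 of the 3 Foxa2 promoters, with 2 matches, and ACAAT, found in 31.0%, in none. The CpG content also differed within the group. The Afp promoter held 3 CpG dinucleotides and the upstream Dab2 promoter 2, against 15 in Amn and 19 in the downstream Dab2 promoter, with a median of 7 over all promoters. The array does not tell the Dab2 starts apart. These matches describe the letters only.

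The transcription factor genes were lower in Pcgf6KO than in wildtype, by less than 2-fold on the probes used. Among the differences of all genes measured on both arrays, Gata4 lay at percentile 3.77, Foxa2 at 4.38 and Sox17 at 9.11. Sox7 lay at 20.3 and Gata6 at 32.8, and Pdgfra lay at 6.51. By this measure Gata4 and Foxa2 were about as far out as Amn, at 95.4, which passed 2-fold. Gata4, a zinc finger factor of primitive endoderm, read -3.80 ± 0.19 on the array labelled Pcgf6KO+ Pcgf6_flag, -3.83 ± 0.16 in Pcgf6KO and -2.97 ± 0.15 in wildtype. Its level was higher in wildtype than on either other array, which overlapped within their errors. Gata6, which starts the primitive endoderm programme, read -3.72 ± 0.18 on the array labelled Pcgf6KO+ Pcgf6_flag, -2.56 ± 0.15 in Pcgf6KO and -2.40 ± 0.15 in wildtype. Pcgf6KO and wildtype thus differed by -0.15 ± 0.21, less than the reading error. Foxa2, a forkhead factor of visceral and definitive endoderm, read -4.56 ± 0.17 in Pcgf6KO and -3.77 ± 0.15 in wildtype on its brighter probe, a difference of -0.79 ± 0.23. On its other probe it was well above background in wildtype only, and as a mean over both probes the difference was -1.33, past 2-fold. Sox7, an SRY-related factor, read -1.55 ± 0.14 in Pcgf6KO and -1.28 ± 0.14 in wildtype. Sox17, its close relative and a driver of primitive endoderm maturation, read -4.83 ± 0.19 in Pcgf6KO and -4.32 ± 0.17 in wildtype on its brighter probe, and its second probe was not well above background on any array. The differences were -0.28 ± 0.20 for Sox7 and -0.52 ± 0.25 for Sox17. Pdgfra, the receptor for PDGF-A, read -5.09 ± 0.19 in Pcgf6KO and -4.46 ± 0.13 in wildtype, a difference of -0.64 ± 0.23. Its spots ranged from 102.1 to 148.6 units in Pcgf6KO and from 150.96 to 196.7 in wildtype, so the spots of these arrays did not overlap.

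Over the whole set, 3 of 10 genes were at least 2-fold higher in Pcgf6KO than in wildtype, against 5.80% of the 14997 genes measured on both arrays, and 1 of 10 was at least 2-fold lower, against 2.81%. The median difference was 1.20 for the 4 effector genes, which ranged from -1.88 to 2.70, and -0.52 for the 5 transcription factor genes, which ranged from -0.86 to -0.15. The median of all genes was -0.02, with quartiles of -0.23 and 0.24. The range of the effector genes thus contained that of the transcription factor genes, with Cubn below all 5 of them and Afp, Dab2 and Amn above. The fibroblast markers differed in the same direction as the transcription factor genes and Cubn: among the 14 with a value in Pcgf6KO and wildtype, 9 were lower by 2-fold or more and 0 higher, with a median of -1.56. Their part in the lower levels was not tested. Afp, Dab2 and Amn were higher in Pcgf6KO while those markers were lower.

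**Figure D2:**
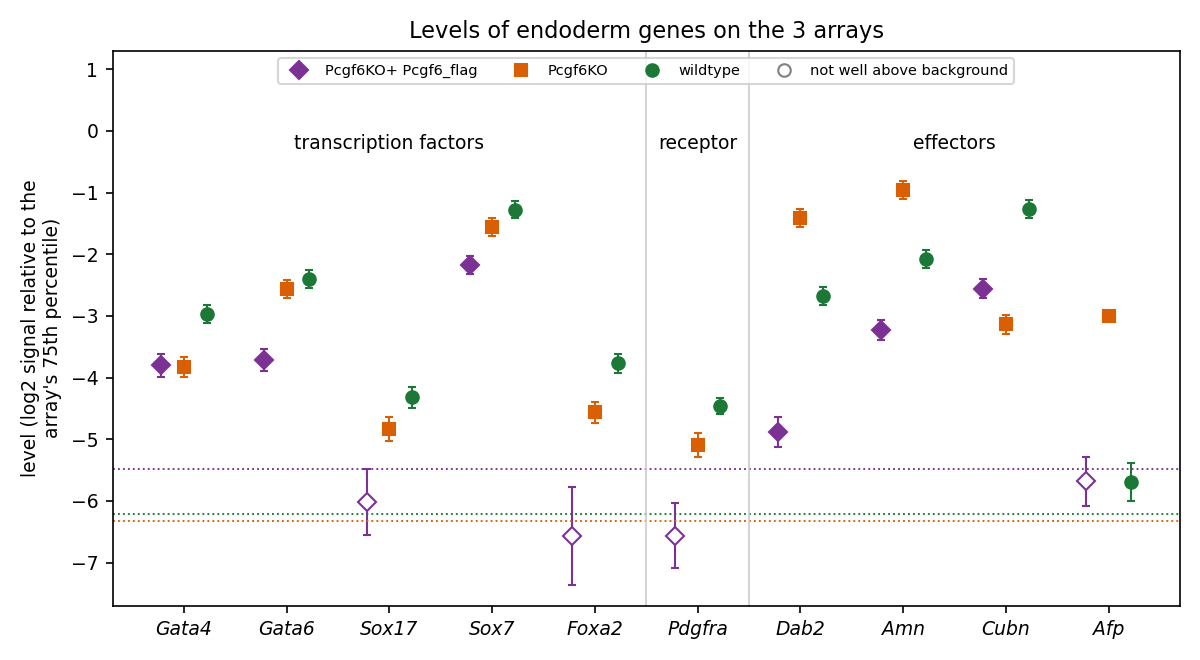
Level of each of the 10 genes on its brightest probe (y axis, log2 signal relative to the 75th percentile of the array) on the array labelled Pcgf6KO+ Pcgf6_flag, in Pcgf6KO and in wildtype; bars are the reading error, open points are not well above background, and dotted lines are the lowest level well above background on each array. The transcription factor genes and Pdgfra lie highest in wildtype, whereas Afp, Dab2 and Amn lie highest in Pcgf6KO.

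On the array labelled Pcgf6KO+ Pcgf6_flag, the effector genes that had been high in Pcgf6KO were low. Dab2 was 11.1-fold lower than in Pcgf6KO, Amn 4.84-fold lower and Afp at least 5.59-fold lower. Gata6 was 2.23-fold lower, the only transcription factor gene past 2-fold as a measured difference. Cubn was higher by 0.58, which is less than 2-fold. An "at least" value applies where 1 array was not well above background, and it sets the brighter level against the lowest level that array could measure.

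The difference of the array labelled Pcgf6KO+ Pcgf6_flag from Pcgf6KO was -3.48 ± 0.28 for Dab2, at percentile 0.11 of 14241 genes measured on both arrays, and -2.62 with normexp background correction. It was -2.28 ± 0.21 for Amn, at percentile 1.49. It was 0.58 ± 0.21 for Cubn, at percentile 87.2. Of the 4 effector genes, Dab2, Amn and Afp thus lay lower and Cubn higher. This comparison and that of Pcgf6KO with wildtype share the Pcgf6KO array. Gata6 differed by -1.16 ± 0.24, and by -0.998 with normexp background correction. Sox7 read -2.17 ± 0.15 on the array labelled Pcgf6KO+ Pcgf6_flag, a difference of -0.62 ± 0.21 from Pcgf6KO. Gata4 differed by 0.03 ± 0.24, and its sign changed with the scaling.

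The array labelled Pcgf6KO+ Pcgf6_flag did not show Sox17, Foxa2, Pdgfra or Afp well above background, so 6 of the 10 genes were measured on both arrays. Sox17 was at least 1.57-fold lower there than in Pcgf6KO, Foxa2 at least 1.90-fold and Pdgfra at least 1.32-fold. Their readings there, -6.01 ± 0.54 for Sox17, -6.57 ± 0.80 for Foxa2 and -6.56 ± 0.52 for Pdgfra, lay below the lowest level well above background, -5.49. These 3 bounds are therefore under 2-fold although the readings were the lowest of the 3 arrays. The Pdgfra spots ranged from 22.8 to 91.3 units there, below all Pcgf6KO spots. Among the 6 measured genes 3 were at least 2-fold lower, against 8.37% of all genes, and 0 were at least 2-fold higher, against 5.40%. Of the 4 bounds 1 passed 2-fold, that of Afp (-2.48, and -1.74 with normexp). This compares with 29.6% of the 1306 genes measured in Pcgf6KO but not on the array labelled Pcgf6KO+ Pcgf6_flag. With bounds included, the median was -2.38 for effector genes and -0.65 for transcription factor genes. The transcription factor value is the Sox17 bound itself, and the effector value rests in part on the Afp bound. Both therefore depend on the lowest level that the array labelled Pcgf6KO+ Pcgf6_flag could measure. Fibroblast markers were again lower, 9 of 12 by at least 2-fold and 0 higher, with a median of -2.09, in the same direction as Dab2, Amn and Afp. Their part in these differences was not tested.

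**Figure D3:**
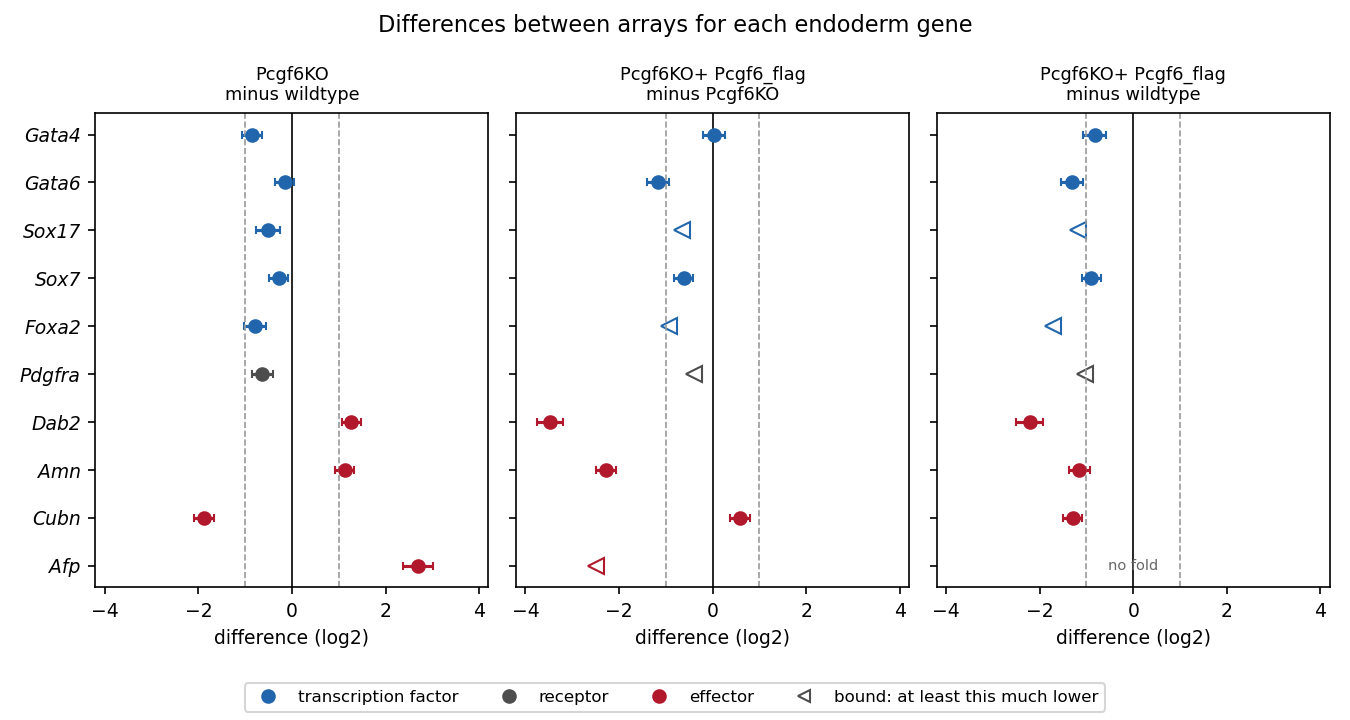
Difference of each gene between arrays (x axis, log2) in the 3 comparisons; bars are the reading error, open triangles are bounds, and dashed lines mark 2-fold. The effector genes Afp, Dab2 and Amn lie right of 2-fold in Pcgf6KO against wildtype and left of it on the array labelled Pcgf6KO+ Pcgf6_flag against Pcgf6KO; all measured differences of that array from wildtype lie below 0.

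Against wildtype, every gene measured on the array labelled Pcgf6KO+ Pcgf6_flag was lower, 6 of 6. The median difference of all 14193 genes measured on both arrays was -0.02, with quartiles of -0.26 and 0.24. Dab2 was 4.63-fold lower, Gata6 2.49-fold, Cubn 2.46-fold and Amn 2.22-fold. These 4 of 6 genes at least 2-fold lower compare with 4.81% of the 14193 genes measured on both arrays, and 0 were at least 2-fold higher, against 4.90%. Sox7 differed by -0.90 ± 0.21 and Gata4 by -0.83 ± 0.24. As bounds, Foxa2 was at least 3.29-fold lower, Sox17 at least 2.25-fold and Pdgfra at least 2.04-fold. Of the 1136 genes measured in wildtype but not on the array labelled Pcgf6KO+ Pcgf6_flag, 26.1% passed 2-fold as a bound. The bounds of Sox17 and Pdgfra were -0.77 and -0.81 with normexp background correction, and the Foxa2 difference was -0.82 as a mean over probes, all under 2-fold. In the unscaled table Amn was -0.91. For Afp no fold can be given, because its wildtype level lay below the lowest level that the other array could measure. The medians were -1.30 for the 3 measured effector genes and -1.17, which is the Sox17 bound, for transcription factor genes with bounds included. Fibroblast markers were 11 of 12 at least 2-fold lower and 0 higher, with a median of -3.65, and their part was not tested here either. The array labelled Pcgf6KO+ Pcgf6_flag was thus below wildtype for both groups of genes, and for Dab2 and Amn it was the lowest of the 3 arrays.

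Other genes of the lineage were read to place the set, from lists that are given here as counts. Of 13 genes for secreted proteins of visceral endoderm, 12 had a named probe and 9 were measured in both Pcgf6KO and wildtype, with 2 at least 2-fold higher in Pcgf6KO, against 5.80% of all genes, 1 lower, against 2.81%, and a median of -0.05. The signalling protein genes Bmp2 and Ihh were higher in Pcgf6KO by 1.69 and 1.25, and the retinol carrier gene Rbp4 differed by 0.98, whereas the trypsin inhibitor gene Spink1 was lower by -1.17. On the array labelled Pcgf6KO+ Pcgf6_flag, Bmp2 was lower than in Pcgf6KO by -2.59 and Rbp4 by -1.10, and Ihh was at least 3.61-fold lower. Bmp2 and Ihh were thus both highest in Pcgf6KO. With normexp background correction 1 gene of this list, not 2, was at least 2-fold higher in Pcgf6KO than in wildtype. Among the genes measured on both arrays, 1 and not 2 was then lower on the array labelled Pcgf6KO+ Pcgf6_flag than in Pcgf6KO, and likewise 1 in the unscaled table. The serum protein genes Ttr, Apoa1 and Apoa4 were not well above background on any array. The same held for the transcription factor gene Hnf4a, which acts in visceral endoderm.

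Of the other transcription factor genes, 5 were measured on both arrays and none passed 2-fold between Pcgf6KO and wildtype, where the median was 0.37. On the array labelled Pcgf6KO+ Pcgf6_flag 3 of 5 were at least 2-fold lower than in Pcgf6KO, against 8.37% of all genes. They were Foxq1 with -1.78, the forkhead gene Foxa1 with -1.28 and Sox18, a factor of blood vessel endothelium related to Sox7 and Sox17, with -1.17, and with normexp 1 of the 5 passed. Gata5 and Foxa3 went the other way, by 0.73 and 0.19, both under 2-fold. Genes of the anterior visceral endoderm, a signalling centre, had a median of 0.38 with none of 6 past 2-fold in Pcgf6KO. The homeobox gene Lhx1 was higher by 1.41 on the array labelled Pcgf6KO+ Pcgf6_flag than in Pcgf6KO, and the Wnt inhibitor gene Dkk1 at least 2.07-fold lower. The head organiser gene Cer1 was not well above background on any array.

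The uptake machinery that works with cubilin was read from 8 genes, all measured on every array. Between Pcgf6KO and wildtype none passed 2-fold, and the median was 0.23. Lrp2, which encodes megalin, differed by 0.25 and the chloride transporter gene Clcn5 by 0.9985, just under 2-fold. On the array labelled Pcgf6KO+ Pcgf6_flag, Lrp2 was lower than in Pcgf6KO by -1.47 and Clcn5 by -1.53, which makes 2 of 8 genes against 8.37% of all genes. The general clathrin genes Cltc and Ap2m1 differed between Pcgf6KO and wildtype by 0.40 and -0.38. Basement membrane genes, which parietal endoderm and fibroblasts both make, had 1 of 13 at least 2-fold lower in Pcgf6KO than in wildtype, against 2.81% of all genes, the thrombomodulin gene Thbd with -1.98. The array labelled Pcgf6KO+ Pcgf6_flag had 4 of 13 at least 2-fold lower than Pcgf6KO, against 8.37% of all genes, among them the plasminogen activator gene Plat with -2.59 and the collagen gene Col4a2 with -1.33.

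FGF signalling acts upstream of Gata6, and Pdgfra itself encodes a receptor of PDGF signalling. Of 12 genes of FGF and PDGF signalling, 1 was at least 2-fold lower in Pcgf6KO than in wildtype, against 2.81% of all genes, Pdgfrb with -2.15, a receptor known from mesenchymal cells. Fgf4, the ligand made by epiblast cells, differed by -0.52 and Fgfr2, its receptor in primitive endoderm, by 0.56. The ligand gene Pdgfc differed by -0.998, just under 2-fold, and was lower on the array labelled Pcgf6KO+ Pcgf6_flag than in Pcgf6KO by -1.33. Of markers of definitive endoderm and primitive streak, Mixl1 was not well above background on any array, T, the brachyury gene, was higher in Pcgf6KO than in wildtype by 1.07, and the chemokine receptor gene Cxcr4 differed by 0.70. Endothelial markers gave no 2-fold difference between Pcgf6KO and wildtype, and Cdh5 and Tie1 were not well above background on any array. On the array labelled Pcgf6KO+ Pcgf6_flag, 2 of 4 endothelial markers were at least 2-fold higher than in Pcgf6KO, against 5.40% of all genes: the VEGF receptor gene Kdr by 1.41 and the endomucin gene Emcn by 1.25. They were also higher there than in wildtype, by 1.23 and 1.27. Of cardiac markers, a tissue in which Gata4 and Gata6 act, Myh6 was higher by 1.05 and Nkx2-5 lower by -1.10 in Pcgf6KO than in wildtype. On the array labelled Pcgf6KO+ Pcgf6_flag, Myl7 was higher than in Pcgf6KO by 1.57, whereas Myh6 was lower by -1.83 and T by -2.06.

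**Figure D4:**
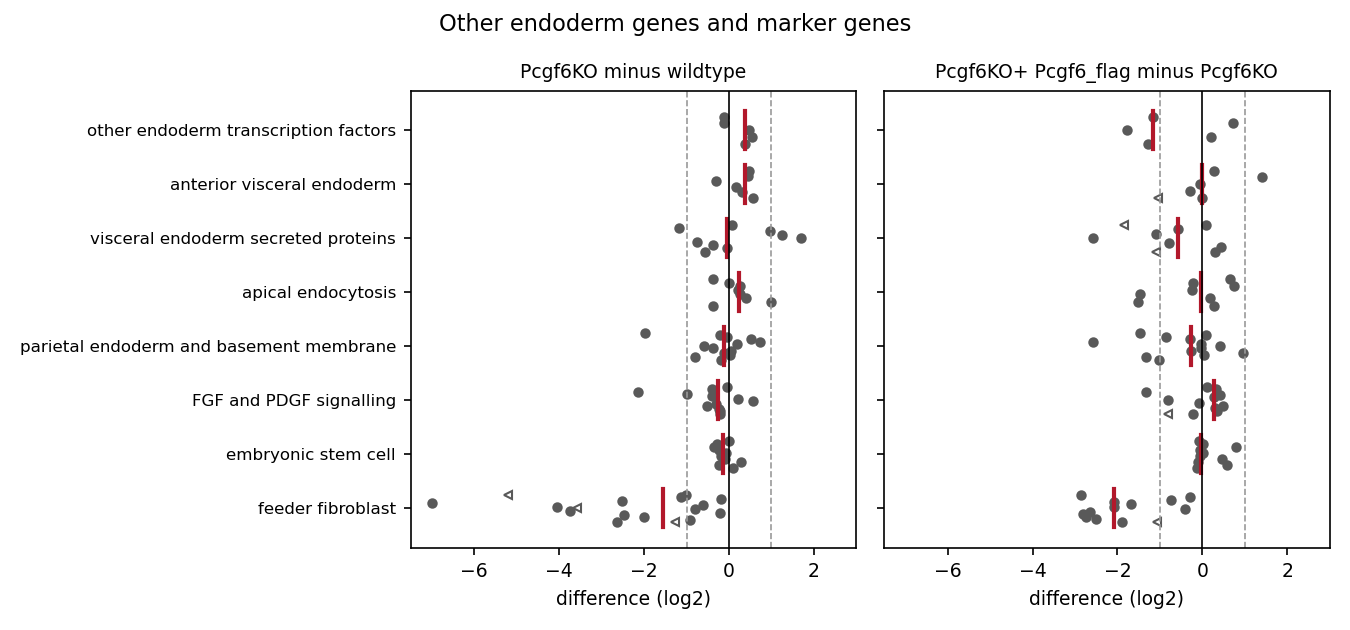
Differences (x axis, log2) of genes in 6 further endoderm and signalling lists and 2 marker lists for Pcgf6KO against wildtype (left) and the array labelled Pcgf6KO+ Pcgf6_flag against Pcgf6KO (right); points are genes measured on both arrays, triangles are bounds, red bars are medians of the measured genes and dashed lines mark 2-fold. Fibroblast markers lie furthest to the left in both comparisons, with medians of -1.56 and -2.09, and stem cell markers stay within 2-fold.

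The profile of a gene over the 3 arrays was compared with those of 7803 bright named genes by Euclidean distance of the levels after each gene's own mean was removed. This was done for Dab2, Amn, Cubn and Gata6, which were measured on all 3 arrays and spanned at least 1 log2 unit, and 3 points are too few for more than a description. The nearest to Dab2 were the annexin gene Anxa3, Fndc3c1 and the enkephalin precursor gene Penk, at distances of 0.46, 0.46 and 0.65. None differed from Pcgf6KO as much as Dab2 on the array labelled Pcgf6KO+ Pcgf6_flag, and Anxa3 came closest with -3.13. The nearest to Amn were Igfbp3, which encodes an IGF-binding protein, Elovl4, a fatty acid elongase gene, and Steap1, at 0.15, 0.29 and 0.31. The nearest to Cubn were Exoc3l, Sap25 and the homeobox gene Gbx2, at 0.35, 0.37 and 0.39. The nearest to Gata6 were Alox5ap, the epithelial membrane protein gene Emp1 and the tissue factor gene F3, at 0.03, 0.03 and 0.10.

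**Figure D5:**
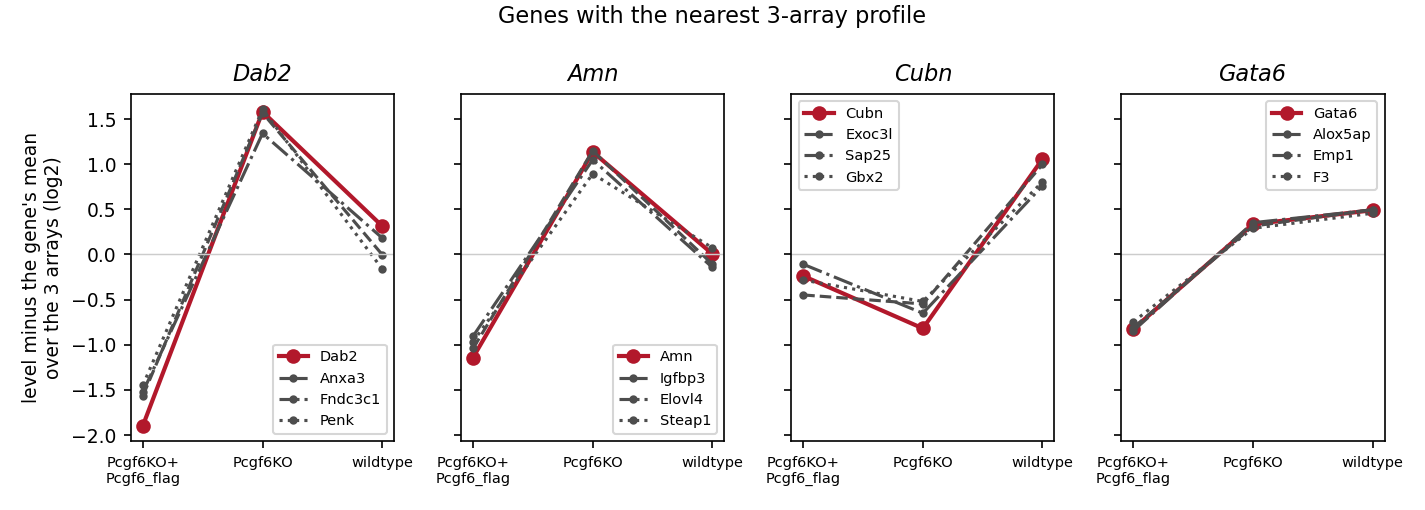
Level of Dab2, Amn, Cubn and Gata6 (red) and of the 3 genes nearest to each (grey) after the mean over the 3 arrays was removed (y axis, log2), on the array labelled Pcgf6KO+ Pcgf6_flag, in Pcgf6KO and in wildtype. Dab2 and Amn peak in Pcgf6KO, Cubn is lowest there, and Gata6 is low on the array labelled Pcgf6KO+ Pcgf6_flag.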

How the data were processed

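Total RNA of mouse embryonic stem cells was labelled with Cy3 and hybridised to 1-colour Agilent arrays, 1 for each of 3 groups taken from the genotype labels. Per the file headers, the deposited intensity values are processed signals from Agilent Feature Extraction 11.5.1.1 on a linear scale, background-subtracted and not scaled between arrays, whereas the submitters' processing notes name version 10.7. The deposited value table held the same intensity for 55249 of 55249 probes with 1 spot on each array (relative tolerance 1e-06), with column medians of 313.2, 273.3 and 243.2 for Pcgf6KO+ Pcgf6_flag, Pcgf6KO and wildtype. It is linear and uncentred, and holds no ratio that would have a direction.

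Control spots and the 192, 158 and 141 outlier spots of these arrays were left out, 0 spots were saturated, and repeated spots were averaged. Probe accessions, with versions removed, were looked up in the RefSeq gene table of GRCm38.p6, and 26762 of 55681 probes received a name. The arrays are annotated on mm9, so gene coordinates are given only for the RefSeq promoters. A probe was taken as measured on an array if most spots passed the software's test against background. Of the probes of a gene measured on at least 1 array, the brightest was used. Repeated spots at signals of 100 to 2500 units had an SD of 0.14 log2 units on the array labelled Pcgf6KO+ Pcgf6_flag, 0.10 in Pcgf6KO and 0.11 in wildtype. Precision is limited by having 1 array per group.

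The genes, the lists and the naming rule were chosen with earlier results of these data known. The rule took all 10 genes, Pcgf6, up to 4 genes per list and comparison with the largest differences, and the 3 nearest profiles. List genes named because they were not well above background, or for their role, were added after values were seen. Alternatives were normexp (limma 3.58.1, offset 50, on median spot signals), quantile, median and common-probe scaling, the unscaled deposited table, no filter on dim probes, bright genes only, thresholds of 1.5-fold and 3-fold, outlier spots included, and the mean over a gene's probes. A slide term could not be fitted with 1 array on the second slide. Python 3.11.15 and R 4.3.3 were used.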

Additional observations from a re-analysis of the deposited data

How the results depend on the processing

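No paired analysis was possible because each group has 1 array. The lowest measurable level limits the dim genes: on the array labelled Pcgf6KO+ Pcgf6_flag, 4 of the 10 genes were not well above background. In Pcgf6KO against wildtype, 3 genes higher and 1 lower became 2 and 1 with normexp, where Amn fell to 0.98. The counts were 3 and 2 with the mean over probes, where Foxa2 was added. They were 3 and 4 at 1.5-fold, where Gata4, Foxa2 and Pdgfra joined Cubn as lower, and 1 and 1 at 3-fold. With the probe chosen without the array labelled Pcgf6KO+ Pcgf6_flag, a choice made after the data were examined, they were 3 and 1. Without a filter on dim probes, 7 genes were lower on that array than in Pcgf6KO, instead of 3, and 7 lower than in wildtype, instead of 4, because dim genes then count as measured; at 3-fold 1 was lower than wildtype. With normexp 2 genes instead of 3 were lower on that array than in Pcgf6KO. With median scaling 5 instead of 4 were lower than in wildtype. The transcription factor median for that array against Pcgf6KO, -0.65, was -0.81 with quantile normalization and -1.16 without the filter. Against wildtype, -1.17 became -0.77 with normexp, -1.36 with quantile normalization, -0.93 in the unscaled table and -0.90 with the mean over probes. The effector median was -1.86 instead of -2.38 against Pcgf6KO with normexp, and against wildtype -1.05 with normexp and -1.06 in the unscaled table instead of -1.30. The cause of the median shifts was not tested. No called difference of these genes changed sign in these alternatives. The unscaled table moved the median difference of all genes by 0.13 for Pcgf6KO against wildtype, and for the array labelled Pcgf6KO+ Pcgf6_flag by 0.11 against Pcgf6KO and 0.24 against wildtype. Median scaling moved the last by -0.12. Bright genes only left none of the 10 genes. For the counts under these alternatives the shares of all genes were not computed, so they cannot be set against a background.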
